A study of Equus caballus with 19 samples.

Results

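The genes described here are 6 inhibitors of metalloproteinases: the 4 tissue inhibitors TIMP1, TIMP2, TIMP3 and TIMP4, the membrane-anchored inhibitor RECK, and A2ML1, a protease-trapping protein of the alpha-2-macroglobulin family. They were taken by gene name from 2 expression tables that each list 29196 gene names, and all 6 were found in both. The members were selected on their measured difference between IL-1β and control, so the values of that difference are given as a description without p-values, and DE calls on it are only counted beside the share over all genes.

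Adult equine tenocytes are the matrix-producing cells of tendon. Here they came post mortem from the superficial digital flexor tendon of Thoroughbred horses, were expanded in culture, and were seeded in gels of bovine type I collagen, a setting without the other cells and the load of a tendon. Every group was grown in such 3D gels and harvested on day 14. The first batch held 5 tenocyte lines (lines 1 to 5), each as an unstimulated control and with 1 nM interleukin-1β (IL-1β), a proinflammatory cytokine. The second batch held 3 further lines (lines 6 to 8), which were left unstimulated, given the same 1 nM dose of IL-1β, or given this dose together with IL1Ra at 100 ng/ml. IL1Ra is the interleukin-1 receptor antagonist, which occupies the receptor without activating it. There was no library with IL1Ra alone among the 19 libraries.

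Metalloproteinases are zinc-dependent enzymes that cleave collagen, proteoglycans and membrane proteins. They include the matrix metalloproteinases (MMPs), the membrane-bound ADAMs and the secreted ADAMTS enzymes, among which are the aggrecanases. TIMPs bind the active site of these enzymes in a tight complex, RECK restrains several MMPs at the cell surface, and macroglobulins close around a protease after it cleaves a bait region. In tendon, matrix turnover is understood to depend on both the enzymes and their inhibitors.

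Values are normalised counts, that is, gene counts scaled so that libraries can be compared. They are not given per unit of gene length, so levels are compared between libraries and not between genes. The batches were normalised separately and are never compared in level. Summed normalised counts ranged from 43393903 to 49197980 per first batch library and from 24964149 to 34602014 per second batch library. Of 11 tenocyte marker genes, 10 were listed, and 9 reached at least 10 normalised counts in a library of every group, whereas TNMD, a tendon-specific membrane protein, was at 0 in both first batch groups and in both stimulated groups of the second. The summed level of the tenocyte markers was 1093245.6 to 1847027.2 in the first batch controls and 428053.1 to 859285.2 with IL-1β. Most of this sum was COL1A1 and COL1A2, at control means of 634135.3 and 696773.4. Of the 9 markers fitted, 1 had a higher mean with IL-1β, DCN (log2-fold change 0.73, higher in 5 of 5 lines). Second batch sums overlapped, at 276759.7 to 912751.2 in controls, 311645.2 to 473833.4 with IL-1β and 156381.1 to 830862.8 with both agents. In bulk RNA, fewer cells of a type and less RNA per cell cannot be told apart. The part of these markers in the results below was not tested.

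A2ML1 is best known from the epidermis, where it inhibits a broad range of proteases. In the 5 control constructs of the first batch its normalised counts were 15.79, 33.14, 164.7, 62.34 and 68.35 in lines 1 to 5. With IL-1β they were 966.3, 1236.9, 1261.4, 1020.0 and 1395.8 in the same lines. The IL-1β constructs thus all lay above all controls, and the lines that were spread widely without IL-1β were close together with it. The mean went from 68.87 ± 57.72 (SD, n = 5) to 1176.1 ± 178.6 (SD, n = 5), and the coefficient of variation from 83.8% to 15.2%.

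The log2-fold change of A2ML1, fitted on log2(normalised count + 1), was 4.46 with a standard error of 0.501. By size it ranked 124 of 14719 genes fitted in the first batch. Within lines the log2 ratio was 5.85 in line 1, 5.18 in line 2, 2.93 in line 3, 4.01 in line 4 and 4.33 in line 5. The smallest ratio belonged to line 3, which had the highest control value, and the largest to line 1, which had the lowest.

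Second batch controls of A2ML1 were at 49.31, 1.799 and 3.447 normalised counts in the order of lines 6, 7 and 8. With IL-1β it stood at 2777.1, 562.0 and 261.0, and again no stimulated construct overlapped with a control. Unlike in the first batch, the lines were not close together with IL-1β. The coefficient of variation was 148.3% in controls and 114.5% with IL-1β. Lines 7 and 8 were near or under 3 normalised counts without IL-1β, so their ratios depend on the added 1. The log2-fold change was 6.44 with a standard error of 1.44, rank 25 of 16705 genes, and the log2 ratios within lines were 5.79, 7.65 and 5.88.

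**Figure D1:**
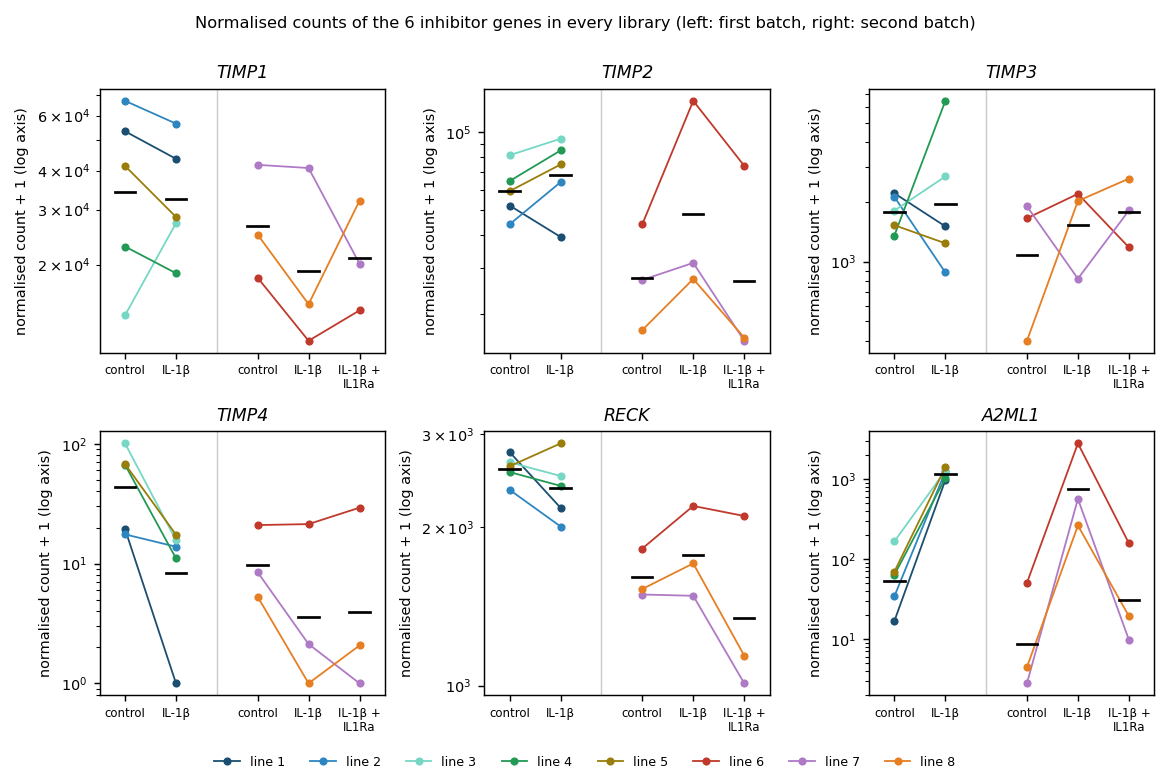
Normalised count plus 1 (log axis) of each inhibitor gene in all 19 libraries, with the libraries of one tenocyte line joined and black bars at the mean of the log values of each group. A2ML1 was higher with IL-1β in all 8 lines and lower with added IL1Ra in all 3 lines of the second batch, whereas TIMP1, TIMP2, TIMP3 and RECK overlapped between groups.

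Because A2ML1 is an epidermal gene, keratinocyte markers were read beside it. Of 13 such markers 9 were listed, and their summed level was 1450.9 to 4019.7 in the first batch controls and 101.2 to 645.8 with IL-1β. Most of this sum was CDH1, at a mean of 2564.2 in controls and 179.5 with IL-1β. KRT5 and KRT14, the keratins of basal epidermis, were at 0 in all libraries with IL-1β alone in both batches. TP63, IVL and EPCAM went the other way in the first batch, at 0 in all controls but not in all IL-1β libraries. EPCAM was at 0 in all second batch libraries. In the first batch 6 markers reached at least 10 normalised counts in a control library and 4 in an IL-1β library. The 3 markers fitted had a median log2-fold change of 0.699 and differed in direction. The adhesion molecule CDH1 fell by 4.75 on the log2 scale (limma, adjusted p = 0.00213), the cross-linking enzyme TGM1 rose by 2.80 (adjusted p = 0.0135), and KRT1, a keratin of upper epidermis, was higher in 5 of 5 lines by 0.70 without being DE (adjusted p = 0.299). The part of these markers in the values of A2ML1 was not tested. Second batch sums were 82.9 to 173.6 in controls, 30.8 to 131.9 with IL-1β and 67.9 to 134.2 with both agents.

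Other cell types were checked in the same way. All 7 leukocyte markers were listed and their summed level was 320.2 to 2318.5 in the first batch controls and 548.5 to 3972.0 with IL-1β. CD3E, which defines T cells, was at 0 in both first batch groups. PTPRC, the pan-leukocyte gene, and CSF1R were at 0 in all first batch controls but not in all first batch IL-1β libraries. In each second batch group both were above 0 in a library or more. In every group of both batches, 4 of the 7 markers reached at least 10 normalised counts in a library. The lysosomal gene CD68 rose by 2.64 in the first batch (limma, adjusted p = 0.00265). The 4 mural cell markers summed to 8081.7 to 14745.6 in controls and 2301.3 to 3176.1 with IL-1β, and CSPG4 (log2-fold change −3.80), NOTCH3 (−1.87) and RGS5 (−1.68) fell. Second batch leukocyte sums were 510.2 to 1555.4 in controls, 960.4 to 3389.1 with IL-1β and 1007.6 to 2342.0 with both agents, and CD68 was higher with IL-1β by 1.89 (adjusted p = 0.586, and 0.0369 with the tenocyte line as a replicate block). Mural sums there were 728.1 to 2751.9, 350.5 to 1132.5 and 319.4 to 2365.1 in the same order. The 4 endothelial markers summed to no more than 87.9 in any library. The part of the leukocyte and mural markers in the members' values was not tested.

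In a newer horse assembly (TB-T2T), the gene RIMKLB partly overlaps A2ML1. The strand setting of the read assignment is not given in the sources used here, so RIMKLB was looked up after the values of A2ML1 had been seen. Its controls stood at 223.3, 291.1, 1324.5, 613.4 and 548.3 in lines 1 to 5, and its IL-1β constructs at 308.8, 1316.8, 1846.5, 2072.6 and 1203.2. It was thus higher with IL-1β in all 5 lines, with overlapping groups. Its log2-fold change was 1.20 (limma, adjusted p = 0.152) in the first batch, and with the tenocyte line as a replicate block the adjusted p was 0.0131. RIMKLB of the second batch was higher with IL-1β in 3 of 3 lines (log2-fold change 1.46) and lower in 3 of 3 when IL1Ra was added (−1.95). With IL-1β the mean of RIMKLB went from 600.1 to 1349.6 normalised counts in the first batch and from 232.5 to 1324.6 in the second. That of A2ML1 went from 68.87 to 1176.1 and from 18.18 to 1200.0, with the larger log2-fold change in both batches. The part of shared reads was not tested.

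TIMP1 is a secreted inhibitor of most MMPs that also binds the tetraspanin CD63. Its first batch controls were 53445.3, 66907.2, 13753.4, 22842.5 and 41402.2 normalised counts in lines 1 to 5. With IL-1β they were 43623.7, 56551.1, 27138.5, 18758.5 and 28402.5. TIMP1 was lower with IL-1β in 4 lines and higher in line 3, and the range of the IL-1β constructs lay inside that of the controls.

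The mean of TIMP1 was 39670.1 ± 21734.0 in controls and 34894.8 ± 15065.5 with IL-1β (SD, n = 5 each), a log2-fold change of −0.08 with a standard error of 0.444. The spread between lines, 4.86-fold between the highest and the lowest control, exceeded the difference between conditions. Second batch controls were 18155.1, 41723.7 and 24958.9 and IL-1β constructs 11395.5, 40763.9 and 14925.0 in lines 6 to 8. All 3 lines were lower with IL-1β, by a log2 ratio of −0.0336 to −0.742, and the groups overlapped.

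TIMP2 also inhibits MMPs, and together with MMP14 on the cell surface it takes part in activating MMP2. First batch controls stood at 52094.3, 44142.3, 81426.3, 64778.6 and 59229.3 normalised counts, and IL-1β constructs at 39428.6, 64170.6, 94251.4, 84979.7 and 75022.6. TIMP2 was higher with IL-1β in lines 2 to 5 and lower in line 1, with overlapping groups. The means were 60334.2 ± 14106.0 and 71570.6 ± 21177.9 (SD, n = 5 each), and the log2-fold change was 0.22 with a standard error of 0.253.

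Controls of lines 6 to 8 had TIMP2 at 44098.1, 26942.2 and 17273.3. With IL-1β it stood at 131864.7, 31352.5 and 27174.8, higher in each line than in its control. Line 6 was the highest in every condition and had the largest ratio, so that the log2-fold change of 0.82 (standard error 0.795) was 0.44 without line 6.

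TIMP3 is retained in the extracellular matrix and inhibits ADAM17 and the aggrecanases ADAMTS4 and ADAMTS5 in addition to MMPs. Its first batch controls were 2209.0, 2119.8, 1806.5, 1353.1 and 1525.4 normalised counts, and its IL-1β constructs 1505.0, 881.4, 2684.3, 6452.5 and 1236.3. Controls lay close together, whereas with IL-1β line 4 stood far above the rest, lines 1, 2 and 5 were lower than their controls and lines 3 and 4 higher. The coefficient of variation was 20.5% in controls and 89.5% with IL-1β. The log2-fold change was 0.14 (standard error 0.457), and −0.39 without line 4.

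The lines also disagreed in direction for TIMP3 in the second batch. Controls of lines 6 to 8 were at 1653.7, 1898.7 and 398.7 and IL-1β constructs at 2194.1, 820.3 and 2019.9. Lines 6 and 8 were higher and line 7 was lower, so the log2-fold change of 0.51 (standard error 0.645) was −0.40 without line 8.

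TIMP4, the member of the family with the most restricted expression, was measured at few counts. Controls of lines 1 to 5 were at 18.43, 16.55, 99.89, 65.93 and 66.81 normalised counts, and IL-1β constructs at 0, 12.83, 14.66, 10.05 and 16.43. TIMP4 was lower with IL-1β in all 5 lines. The groups did not overlap, but the highest IL-1β construct and the lowest control differed by less than 1 normalised count. The mean went from 53.52 ± 35.63 to 10.79 ± 6.478 (SD, n = 5 each), and the fitted log2-fold change was −2.37 with a standard error of 0.842.

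Among the second batch libraries, TIMP4 passed the filter on low values through line 6 alone. Its controls were at 19.97, 7.483 and 4.297 normalised counts in lines 6 to 8, its IL-1β constructs at 20.37, 1.127 and 0, and its constructs with both agents at 28.31, 0 and 1.073. Line 6 was the highest in all 3 conditions, while lines 7 and 8 stayed under 8. The fitted log2-fold change of −1.46 (standard error 1.51) came from values at which few reads decide a ratio.

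RECK is a glycolipid-anchored surface protein that restrains MMP2, MMP9 and MMP14 and, with ADGRA2, serves as a receptor for WNT7 ligands. It had the narrowest spread of the 6 genes in the first batch controls, at 2772.1, 2350.8, 2651.7, 2541.1 and 2606.9 normalised counts (coefficient of variation 6.02%). With IL-1β it was at 2172.4, 2002.9, 2497.7, 2392.1 and 2880.4. RECK was lower in lines 1 to 4 and higher in line 5, and the groups overlapped. The log2-fold change was −0.12 with a standard error of 0.102, from means of 2584.5 ± 155.5 and 2389.1 ± 335.1 (SD, n = 5 each).

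Second batch controls of RECK were at 1819.1, 1488.2 and 1524.4 and IL-1β constructs at 2191.5, 1479.8 and 1704.6. It was higher in lines 6 and 8 and almost level in line 7, a log2-fold change of 0.14 (standard error 0.289) that was −0.04 when libraries were scaled to equal sums.

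**Figure D2:**
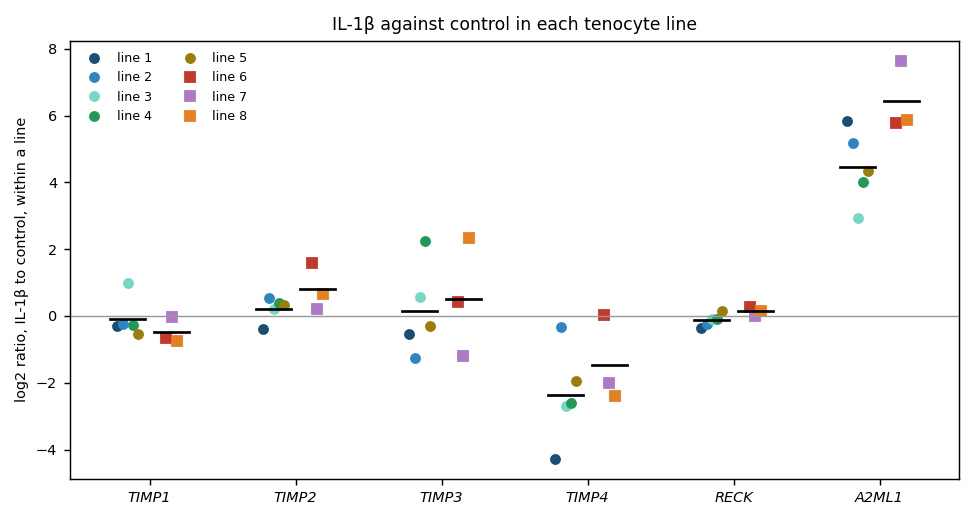
Log2 ratio of IL-1β to control within each tenocyte line for the 6 inhibitor genes, with circles for the 5 lines of the first batch, squares for the 3 lines of the second and bars at the batch means. The ratios of A2ML1 ranged from 2.93 to 7.65, those of RECK stayed between −0.352 and 0.269, and those of TIMP3 lay on both sides of 0 in both batches.

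A gene was called differentially expressed (DE) when limma gave an adjusted p below 0.05 and the log2-fold change was 1 or more in either direction. Between IL-1β and control in the first batch, 1 of the 6 members, A2ML1, was DE, where 12.8% of all 14719 genes were (4.91% higher and 7.90% lower). When the tenocyte line was added as a replicate block, A2ML1 and TIMP4 were DE, 2 of 6, where 16.2% of all genes were. Of the second batch comparison, 0 of 6 members were DE without the block, where 0.341% of 16705 genes were (0.269% higher and 0.0718% lower), and 1 of 6, A2ML1, was DE with it, where 5.18% of genes were. Non-overlapping groups were found for A2ML1 and TIMP4 in the first batch, against 19.5% of all genes, and for A2ML1 in the second, against 16.4%. One direction in every line was shown by the same 2 members in the first batch, where 49.8% of all genes did so, and by A2ML1, TIMP1 and TIMP2 in the second, where 38.0% did. The median absolute log2-fold change of the 6 members was 0.178 in the first batch, beside 0.336 over all genes. For the second batch it was 0.665, beside 0.330. These counts concern the values that chose the members, and nothing is drawn from them.

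The comparison of IL-1β + IL1Ra with IL-1β asked whether the members differed once the receptor was blocked. It shares its IL-1β libraries with the comparison above, on which the members were selected. A lower A2ML1 with both agents was therefore favoured in advance. A2ML1 was at 156.2, 8.787 and 18.34 normalised counts with both agents in lines 6, 7 and 8, against 2777.1, 562.0 and 261.0 with IL-1β alone. Each line was lower by a log2 ratio of −3.76 to −5.85, and the groups did not overlap, as for 6.47% of all genes. The log2-fold change was −4.58 (standard error 1.44, 95% interval −7.87 to −1.29), the fifth in size of all 16705 genes fitted.

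This difference did not pass the test across all genes. The unadjusted p of A2ML1 in limma was 0.0121 and its adjusted p was 1.00. With the tenocyte line as a replicate block the adjusted p was 0.0699, and over all alternatives it ran from 0.0699 to 1.00. In this comparison 0 of the 6 members and 0 of all genes were DE in limma (0% of 16705), 464 genes had an unadjusted p under 0.05, and 1 gene (0.00599%), which was no member, was DE with the block.

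A2ML1 with both agents was higher than control in 3 of 3 lines, and 39.1% of all genes moved one way in every line in this comparison. The log2 ratios were 1.64, 1.81 and 2.12 in lines 6 to 8, but the groups overlapped, since line 6 without IL-1β (49.31) stood above lines 7 and 8 with both agents. The log2-fold change was 1.86 (standard error 1.44, 95% interval −1.43 to 5.15, adjusted p = 1.00 in limma). With the tenocyte line as a replicate block the 95% interval was 0.77 to 2.94 and the adjusted p 0.173, and the adjusted p ran from 0.173 to 1.00 over all alternatives. In order of level, IL-1β stood above IL-1β + IL1Ra without overlap, and the groups of IL-1β + IL1Ra and control overlapped although each line was higher with both agents.

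**Figure D3:**
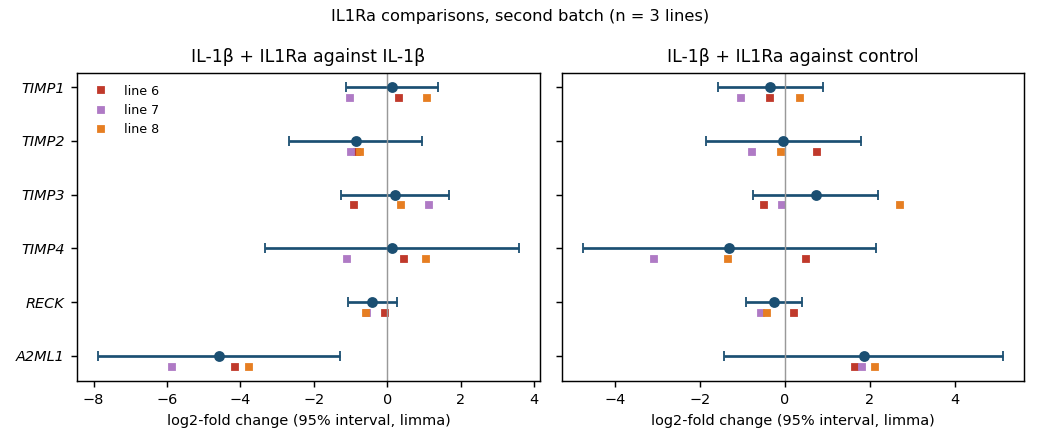
Log2-fold changes of the 6 inhibitor genes in the second batch with their 95% intervals from limma (circles and bars) and the log2 ratio in each of the 3 lines (squares), for IL-1β + IL1Ra against IL-1β on the left and against control on the right. The interval of A2ML1 against IL-1β, −7.87 to −1.29, did not include 0, and all other intervals did. The intervals are from the fit without the replicate block and are not adjusted for the number of genes.

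TIMP2 was lower with added IL1Ra in 3 of 3 lines. With both agents it was at 74113.5, 15710.9 and 16160.2 normalised counts (lines 6, 7 and 8), and the log2 ratios to IL-1β alone lay close together, at −0.831, −0.997 and −0.750. Since line 6 was far above lines 7 and 8 in each condition, the groups overlapped. Without the line in the fit, the log2-fold change of −0.86 had a 95% interval of −2.68 to 0.96 (limma, adjusted p = 1.00, and 0.562 to 1.00 over all alternatives). With the tenocyte line as a replicate block the 95% interval was −1.67 to −0.05 and the adjusted p in limma 0.562. Against control the difference was −0.04 (95% interval −1.86 to 1.78), with line 6 higher and lines 7 and 8 lower.

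RECK was likewise lower with both agents than with IL-1β alone in 3 of 3 lines, at 2097.4, 1009.3 and 1139.1 normalised counts. The ratio was 0.957 in line 6, 0.682 in line 7 and 0.668 in line 8. The log2-fold change was −0.40 (95% interval −1.06 to 0.26, adjusted p = 1.00 in limma), and against control it was −0.26 (95% interval −0.92 to 0.40). The same direction in all 3 lines was shared by 32.4% of all genes in the comparison with IL-1β.

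TIMP1 and TIMP3 did not move in one direction across lines when IL1Ra was added. TIMP1 was at 14261.1, 20105.9 and 32034.4 normalised counts with both agents, lower than with IL-1β in line 7 and higher in lines 6 and 8. Its log2-fold change was 0.14 (95% interval −1.11 to 1.38), and −0.35 without line 8. TIMP3 was at 1179.2, 1809.7 and 2618.2, lower in line 6 and higher in lines 7 and 8, with a log2-fold change of 0.21 (95% interval −1.27 to 1.68) that was −0.26 without line 7.

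Against control, TIMP1 differed by −0.35 (95% interval −1.59 to 0.90) and TIMP3 by 0.72 (95% interval −0.76 to 2.20). The value of TIMP3 rested on line 8, in which the log2 ratio was 2.71, and was −0.28 without it. TIMP4 differed by 0.14 from IL-1β alone (95% interval −3.32 to 3.59) and by −1.32 from control (95% interval −4.77 to 2.14), the latter −0.44 without line 7 and −0.51 with a pseudocount of 5. The adjusted p was 1.00 in limma for each of these genes in both comparisons. Of the 6 members, 0 were DE between both agents and control in either fit, where 2 genes (0.0120%) were DE without the block and 42 (0.251%) with it. With 3 lines a group and no block, the intervals reached beyond a log2-fold change of 1 in at least 1 direction for all 6 members against IL-1β. Against control they did so for all but RECK. The interval of A2ML1 against IL-1β lay wholly below −1, but it is not adjusted for the number of genes. It also uses IL-1β libraries on which the member was selected, so nothing is concluded from it. The other intervals without the block included 0, so neither no difference nor one of that size could be excluded where they reached beyond 1. With the replicate block, the intervals of A2ML1 in both comparisons and of TIMP2 against IL-1β (−1.67 to −0.05) did not include 0. Those of RECK against IL-1β (−0.82 to 0.02) and control (−0.68 to 0.16), and of TIMP2 against control (−0.85 to 0.77), stayed within 1 of 0. The block intervals are not adjusted for the number of genes either.

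The levels of TIMP1 and TIMP2 ran in opposite order across lines. In the 5 controls of the first batch, TIMP1 rose in the order of lines 3, 4, 5, 1 and 2, and TIMP2 fell in exactly that order. With IL-1β the orders were nearly reversed, at lines 4, 3, 5, 1 and 2 for TIMP1 from low to high and lines 1, 2, 5, 4 and 3 for TIMP2. Over the 10 first batch libraries Pearson's r of the log2 values was −0.739, and over the 9 second batch libraries −0.619. These libraries share lines and are not independent, so r is given as a description. Second batch controls were ordered 6, 8 and 7 by TIMP1 and 8, 7 and 6 by TIMP2, so the exact reversal was not seen there.

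**Figure D4:**
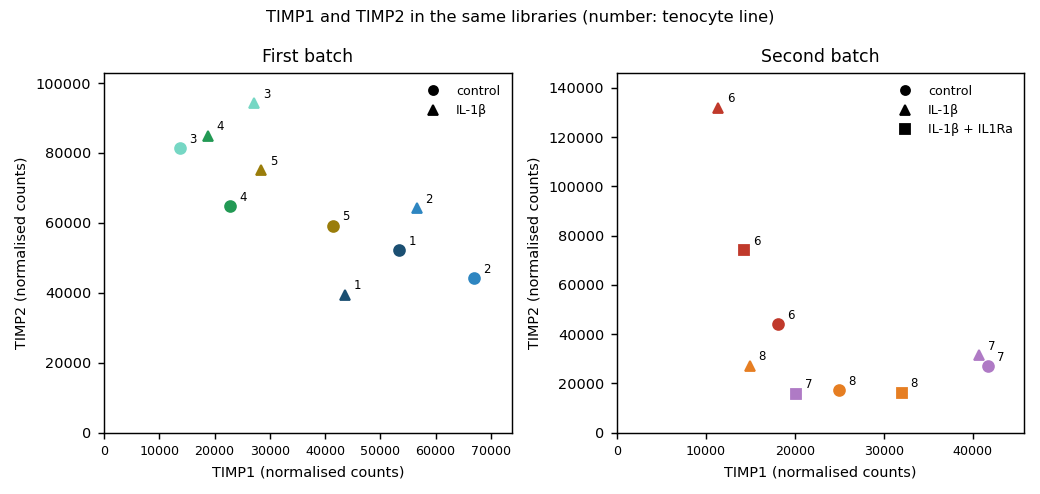
Normalised counts of TIMP1 and TIMP2 in each library of the first batch (left) and the second (right), with symbols for the condition and numbers and colours for the tenocyte line. In the first batch lines 3 and 4 had high TIMP2 with low TIMP1 and line 2 the highest TIMP1, and in the second batch line 6 had the highest TIMP2 in each condition.

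Beyond the members, each had genes whose log2 values followed it across the 10 first batch libraries, among 12358 candidate genes. For A2ML1 the 3 closest were ZSWIM8 (r = 0.993), IFNGR2, a chain of the interferon gamma receptor (r = 0.981), and the copper transporter SLC31A1 (r = 0.976). Their r in the second batch was 0.252, 0.90 and 0.917. By this measure IFNGR2 and SLC31A1 followed A2ML1 in both batches and ZSWIM8 in the first only. For every member, r was taken over the libraries of all conditions together. It therefore includes the difference between IL-1β and control on which the members were selected, and is given as a description. IFNGR2 and SLC31A1 were themselves DE with IL-1β in the first batch (log2-fold changes 1.75 and 1.15). In the first batch 151 genes reached an r of 0.9 with A2ML1, and 165 did with TIMP4.

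For TIMP2 the closest genes were SYNRG (r = 0.981), IFT122, a protein of ciliary transport (0.966), and TMEM8B (0.956), with r of 0.467, 0.863 and 0.808 in the second batch. For TIMP1 they were MCAT, an enzyme of mitochondrial fatty acid synthesis (0.963), YIF1A (0.948) and GADD45GIP1 (0.931), with 0.697, 0.517 and 0.733. TIMP4 was closest to C8H22orf15 (0.971), the calcium channel subunit CACNB2 (0.970) and ACAD10 (0.970), with 0.865, 0.856 and 0.0165. DMXL1, ARID1B and APPBP2 had r of 0.928, 0.876 and 0.839 to TIMP3 and 0.330, 0.270 and 0.527 in the second batch. CTSE, HEATR5B and WDR73 had 0.894, 0.857 and 0.845 to RECK and −0.291, 0.322 and 0.603 in the second batch.

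The enzymes that these inhibitors act on were counted by lists chosen with earlier results known. Of 23 listed MMP genes 17 were fitted, and in the first batch 7 rose and 3 fell with IL-1β, beside 4.91% and 7.90% of all genes, or 8 and 5 with the tenocyte line as a replicate block. Their median log2-fold change was 0.795, beside −0.00341 over all genes. The collagenase MMP8 rose by 7.53 (adjusted p = 0.000685, limma throughout), the stromelysin MMP3 by 6.51 (adjusted p = 0.00333), the collagenase MMP13 by 4.36 (adjusted p = 0.000353) and the macrophage elastase MMP12 by 3.54 (adjusted p = 0.0136). MMP14, the membrane-bound partner of TIMP2, was higher in 5 of 5 lines but was not DE (0.79, adjusted p = 0.0526). In the second batch 0 of 17 MMP genes were DE, beside 0.341% of all genes. With the tenocyte line as a replicate block 4 were, 3 higher and 1 lower, beside 5.18% of all genes.

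Of the 13 ADAMTS genes fitted in the first batch, 2 rose and 4 fell, beside 4.91% and 7.90% of all genes, or 3 and 6 with the block, and the median was −0.763. Both that rose were aggrecanases inhibited by TIMP3, ADAMTS4 (2.49, adjusted p = 0.000767) and ADAMTS5 (1.56, adjusted p = 0.00481). ADAMTS6 fell by 3.44 (adjusted p = 0.00491) and ADAMTS14, a procollagen peptidase, fell by 2.41 (adjusted p = 0.000680). Of the 12 fitted in the second batch 0 were DE, beside 0.341% of all genes. With the replicate block 3 were higher and 2 lower, where 5.18% of all genes were DE.

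Of the 8 ADAM genes fitted, 1 rose and 2 fell in the first batch, beside 4.91% and 7.90% of all genes, with a median of −0.169. ADAM8 rose by 4.23 (adjusted p = 0.00265), while ADAM19 fell by 1.60 (adjusted p = 0.00140) and ADAM15 by 1.08 (adjusted p = 0.00924). ADAM17, the shedding enzyme that TIMP3 inhibits, was higher in 5 of 5 lines by 0.48 (adjusted p = 0.00378), which is below the fold set for DE. In the second batch ADAM19 was DE at −1.94 (adjusted p = 0.0431), the only one of the 8, and 2 were with the block. The shares of all genes there were 0.341% and 5.18%.

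Among 8 fitted genes whose proteins bind or take up the inhibitors, 1 was DE in the first batch, beside 12.8% of all genes. The median was −0.212. The DE gene was ADGRA2, the partner of RECK, which fell by 2.56 (adjusted p = 0.000727). CD63, to which TIMP1 binds, was higher in 5 of 5 lines by 0.40 (adjusted p = 0.0239). LRP1, the endocytic receptor of TIMP3, was lower in 5 of 5 lines by a log2-fold change of −0.64 (adjusted p = 0.117). In the second batch 0 of 8 were DE in either fit, beside 0.341% of all genes, or 5.18% with the block. Of 7 listed macroglobulin relatives of A2ML1, 2 were in the tables and CD109, a cell surface member, was fitted. It fell by 1.19 (adjusted p = 0.00491) in the first batch, and was at −1.01 in the second (adjusted p = 0.145, and 0.0452 with the replicate block). The classical family member A2M was not analysed here.

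With IL1Ra added to IL-1β, 0 of the 17 MMP, 12 ADAMTS, 8 ADAM and 8 partner genes were DE, with or without the block. The 4 MMP genes named above for their rise with IL-1β were lower in 3 of 3 lines, where 32.4% of all genes moved one way. Their log2-fold changes were −1.42 for MMP8, −2.84 for MMP3, −2.14 for MMP13 and −3.02 for MMP12 (adjusted p = 1.00 for each in limma). Of the 17 MMP genes 5 had a positive log2-fold change, among them MMP16 (1.14) and MMP28 (1.53), higher in 3 of 3 lines. Against control, MMP8 was higher with both agents in 3 of 3 lines by 4.91 (adjusted p = 0.545, and 0.0498 with the replicate block, in which it was DE). The aggrecanases were higher than control with both agents in 3 of 3 lines without being DE, ADAMTS4 by 2.33 (adjusted p = 0.827) and ADAMTS5 by 1.14 (adjusted p = 0.582). Whether the change of A2ML1 with IL1Ra differed from that of these enzymes was not tested.

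**Figure D5:**
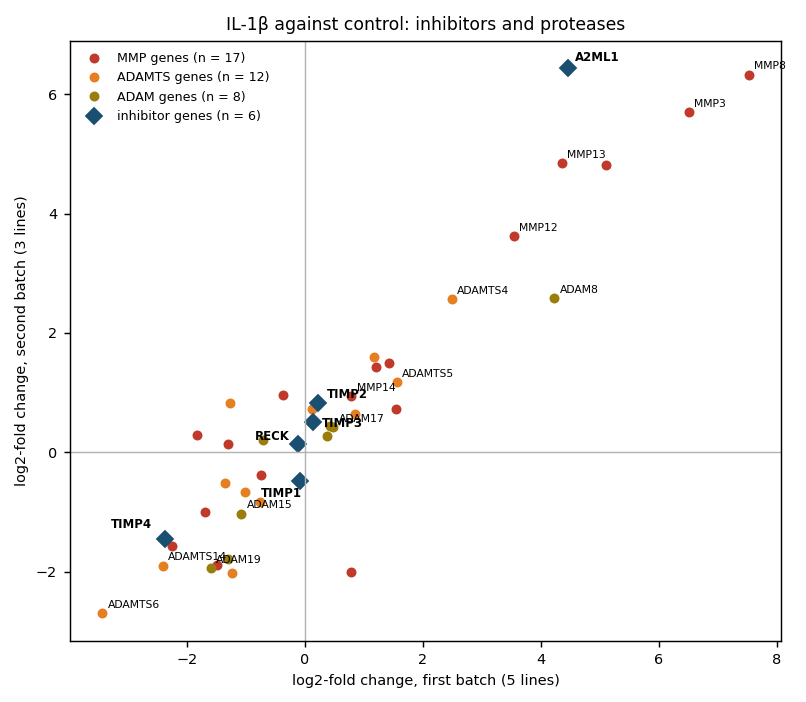
Log2-fold change with IL-1β, relative to control, in the first batch (horizontal, 5 lines) and in the second (vertical, 3 lines) for the 6 inhibitor genes (diamonds) and for the MMP, ADAMTS and ADAM genes fitted in both batches (circles). A2ML1 lay at 4.46 and 6.44, MMP8 at 7.53 and 6.33, and TIMP1, TIMP2, TIMP3 and RECK lay within 1 of 0 on both axes.

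The values of the other genes that overlap a member in the newer assembly were also looked up. TIMP1, TIMP3 and TIMP4 lie inside SYN1, SYN3 and SYN2, genes of synaptic vesicle proteins. SYN2 and SYN3 were under 4 normalised counts in all libraries. SYN1 was at 51.08 to 208.5 in the first batch (log2-fold change −0.76, adjusted p = 0.0997 in limma). Like TIMP1, it was lower with IL-1β in 4 of 5 lines and higher in line 3, and its controls were lowest in line 3 and highest in line 2. In the second batch SYN1 was at 66.55 to 116.4 (log2-fold change −0.10), and its controls rose in the order of lines 6, 8 and 7, as those of TIMP1 did. The part of shared reads in TIMP1 was not tested. CEP295NL lies inside TIMP2 and LOC102149851 inside RECK, and both stayed under 24 normalised counts in the libraries of both batches.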

How the data were processed

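RNA sequencing libraries were made from the day 14 constructs with a stranded mRNA kit. The deposited signal values are normalised counts: reads were assigned by the authors to transcripts of EquCab3.0 with Salmon, totalled per gene with tximport and then, batch by batch, scaled with DESeq2 size factors (version 1.36, R 4.2.1). Salmon estimates how reads that fit several transcripts are shared, which can shift counts between overlapping genes. Whole reads were not recovered. After division by the best-fitting step of each library, 56.0% to 73.6% of low values lay within 0.05 of a whole number. No count model was therefore fitted, and sequencing depth is known only as the sums of normalised counts. No column was without a sample.

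From there, log2(normalised count + 1) went into limma 3.58.1 under R 4.3.3 (lmFit, then eBayes with trend), one batch at a time. Genes needed 10 or more normalised counts in 5 or more libraries of the first batch or 3 or more of the second, with Benjamini-Hochberg adjustment over all genes fitted. The 3 conditions of the second batch were fitted together. A fold change on this scale understates the change of genes with few counts. The fits were tested on simulated data. The members and gene lists were chosen with earlier results of these data known. The list genes named are up to 4 per list with the largest log2-fold change among DE genes that moved one way in all 5 lines, plus binding partners of the inhibitors, and the 3 genes with the highest Pearson r to each member.

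All libraries of a line derive from the cells of one donor, and the line number therefore pairs them. Deviations from the group means correlated at 0.351 to 0.578 for the same line (5 pairs) and −0.356 to 0.288 for different lines (20 pairs) in the first batch, and at 0.535 to 0.794 (9 pairs) and −0.625 to 0.249 (18 pairs) in the second. Gene names were looked up in the RefSeq genes of the newer assembly TB-T2T (23397 of 29196 names, 6 of 6 members) for gene overlaps. Coordinates and sequences are not given.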

Additional observations from a re-analysis of the deposited data

Results flagged for a closer look

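TIMP1 in line 3 stood apart from the other first batch lines. Its log2 ratio of IL-1β to control was 0.98, whereas the other 4 lines were between −0.544 and −0.243, a gap above Dixon's critical value of 0.71 for 5 values. Line 3 had the lowest TIMP1 control, at 13753.4 normalised counts. Of 18 such checks 1 stood out, and chance alone marks about 1 in 20 groups.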

How the results depend on the processing

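Pseudocounts of 0.5 and 5, no filter on low values, equal sums of counts, the tenocyte line as a replicate block, the 2 conditions alone and leaving out each line in turn were tried. With equal sums the median log2-fold change of all genes was −0.19 for IL-1β against control in the second batch, beside −0.0084 as deposited. For IL-1β + IL1Ra against IL-1β it was 0.11, beside 0.00884. RECK between IL-1β and control in the second batch went from 0.14 to −0.04. That comparison had 45 higher and 12 lower DE genes as deposited and 35 and 22 with equal sums.

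The DE counts of the second batch depended on the fit. IL-1β against control had 57, with 865 with the replicate block, 34 from the 2 conditions alone and 0 to 364 without one line (364 without line 6, 0 without line 7 or 8). IL-1β + IL1Ra against IL-1β had 0, with 1 with the block and 0 to 10 without one line (10 without line 6). IL-1β + IL1Ra against control had 2, with 1 with equal sums, 42 with the block, 0 from the 2 conditions alone and 0 to 63 without one line (63 without line 6). In the first batch the count was 1885, 2386 with the block and 1374 to 1729 without one line. The block changed no call of a member other than the 2 given above.

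Without one line, the log2-fold change against IL-1β ran from −0.35 to 0.71 for TIMP1 (−0.35 without line 8), −0.26 to 0.76 for TIMP3 (−0.26 without line 7) and −0.32 to 0.75 for TIMP4 (−0.32 without line 8). Against control it ran from −0.70 to 0.01 for TIMP1 (0.01 without line 7), −0.44 to 0.33 for TIMP2 (0.33 without line 7), −0.28 to 1.32 for TIMP3 (−0.28 without line 8) and −1.30 to −0.44 for TIMP4. A2ML1 kept its direction in each comparison under all of these alternatives, at 4.11 to 4.84 and 5.83 to 6.77 for IL-1β against control, −4.99 to −3.95 against IL-1β and 1.72 to 1.96 against control without one line. TIMP4 in the second batch could not be fitted without line 6 or from 2 conditions alone, where it failed the filter on low values. The cause of these changes was not tested.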
